A study of Mus musculus with 3 samples.

Results

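The genes described here are the core and linker histone genes of the mouse, taken as the protein-coding genes whose current symbol starts with H1f, H2ac, H2bc, H3c or H4c. The annotation held 67 such genes among 21900 protein-coding genes, namely 10 linker histone (H1) genes, 17 H2A, 16 H2B, 12 H3 and 12 H4 genes. Their RNA was read through peaks of Tet2 crosslinking and immunoprecipitation sequencing (CLIP-seq), which maps where an RNA-bound protein sits by freezing the contact with ultraviolet light and pulling the protein down. Tet2, best known as a 5-methylcytosine dioxygenase, was recovered with an antibody from mast cells raised from C57BL/6 bone marrow, and the 3 libraries are replicates of 1 group. The cells were grown from bone marrow for 4 to 6 weeks with the mast cell cytokines IL-3 (10 ng/ml) and SCF (5 ng/ml) and were over 97.5% positive for the mast cell surface proteins FcεRI and c-Kit. They carried no genetic change that the labels name and were irradiated at 400 and then 200 mJ per square centimetre. No input, control antibody or Tet2-deficient library was analysed here, so a peak was read against the other peaks of its own library, and RNA abundance and Tet2 contact cannot be told apart.

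Canonical histone genes lie in clusters, mostly lack introns and are transcribed chiefly in S phase, when new DNA must be wrapped. Their mRNAs are the metazoan mRNAs that end in a conserved stem-loop bound by SLBP instead of a poly(A) tail. H2A, H2B, H3 and H4 form the nucleosome core, and H1 binds the linker DNA between nucleosomes. Mast cells kept in IL-3 and SCF are a dividing culture, in which such mRNAs are made.

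Each library was deposited as a list of peaks with a height that the authors normalized to the library. The lists held 3019, 2800 and 2377 peaks in replicates 1, 2 and 3, and the heights are given here in units of the smallest step between them, of which a library held 19213, 18270 and 15431. The lowest peaks stood at 2, 2 and 3 units, and the median was 4 units in each library. No source used here says if a unit stands for 1 read, sequencing depth is unknown, and the peaks carry no strand. Of the mast cell markers, 9 of 13 held a peak and 7 held one in all 3 libraries, among them Gata2 at 18, 11 and 15 units. No peak lay in Fcer1a, Ms4a2, Cma1 or Mcpt4. A peak lay in 1 of 6 macrophage, 0 of 6 neutrophil, 0 of 5 lymphocyte and 1 of 6 erythroid or megakaryocyte markers. The 16.7% of macrophage and of erythroid or megakaryocyte markers was near the 14.1% of all protein-coding genes. The erythroid or megakaryocyte marker was Itga2b, at 4 units in each library. Thus 1 of these 6 markers held a peak in all 3 libraries, beside 3.16% of protein-coding genes, and no macrophage marker did.

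The regions around the starts of the 5 genes with the highest mean tallest peak, among members with an entry in the promoter table, are shown first (H2bc4, also tall, had none), with H2bc13, an H2B gene without any peak, for comparison. Each runs 5′ to 3′ on the gene's own strand, from 150 nt before the annotated start through the first 30 nt from the start on, and comes from RefSeq on GRCm38.p6, which shares its coordinates with mm10. Capitals mark 3 motifs on either strand: the octamer ATTTGCAT, a recognition element of POU-domain factors long known from H2B promoters, the TATA box core TATAAA, and CCAAT. The motifs did not overlap in these windows.
H2bc9 (chr13:23543415-23543594, minus strand): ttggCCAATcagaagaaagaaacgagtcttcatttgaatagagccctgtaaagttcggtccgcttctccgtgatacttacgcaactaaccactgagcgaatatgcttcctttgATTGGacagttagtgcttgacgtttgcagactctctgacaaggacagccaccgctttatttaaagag
H2bc8 (chr13:23571250-23571429, plus strand): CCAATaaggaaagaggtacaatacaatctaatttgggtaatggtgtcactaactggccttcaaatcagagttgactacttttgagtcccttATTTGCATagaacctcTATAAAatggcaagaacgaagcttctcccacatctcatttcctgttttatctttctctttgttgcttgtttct
H2bc3 (chr13:23746584-23746763, plus strand): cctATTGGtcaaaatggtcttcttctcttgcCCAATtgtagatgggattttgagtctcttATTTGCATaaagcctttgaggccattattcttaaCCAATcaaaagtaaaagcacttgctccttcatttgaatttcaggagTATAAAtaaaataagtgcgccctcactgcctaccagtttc
H2bc14 (chr13:21721894-21722073, plus strand): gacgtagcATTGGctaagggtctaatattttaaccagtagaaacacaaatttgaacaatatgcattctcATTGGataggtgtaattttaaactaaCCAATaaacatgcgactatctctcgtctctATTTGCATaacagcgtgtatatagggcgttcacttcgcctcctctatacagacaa
H4c4 (chr13:23581418-23581597, plus strand): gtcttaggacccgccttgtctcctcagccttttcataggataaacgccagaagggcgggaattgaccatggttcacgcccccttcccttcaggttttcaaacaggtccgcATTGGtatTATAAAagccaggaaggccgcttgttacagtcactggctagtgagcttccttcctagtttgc
H2bc13 (chr13:21716154-21716333, minus strand): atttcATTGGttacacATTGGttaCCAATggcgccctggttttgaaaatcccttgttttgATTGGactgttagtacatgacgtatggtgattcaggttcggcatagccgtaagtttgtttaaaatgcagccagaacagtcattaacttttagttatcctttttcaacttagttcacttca
H2bc3, H2bc8 and H2bc14 each showed 1 octamer on the gene's strand, and H2bc9, the gene with the tallest peak, showed none. H2bc13 showed 4 CCAAT matches and neither other motif, and H4c4 showed 1 TATAAA and 1 CCAAT.

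Tet2 peaks lay in 40 of the 67 histone genes (59.7%) when any of the libraries counted, where 14.1% of all protein-coding genes held one. Peaks were found in 33 members in replicate 1, 25 in replicate 2 and 27 in replicate 3. These are 49.3%, 37.3% and 40.3% of members, beside 8.55%, 8.04% and 7.02% of all protein-coding genes in the same libraries. In all 3 libraries a peak lay in 16 members (23.9%), beside 3.16% of protein-coding genes. A further 13 members held a peak in 2 libraries, 11 in 1 library and 27 in none. The histone spans are short, with a median of 496 nt against 17146 nt over protein-coding genes. Of the members under 1000 nt, 35 of 58 (60.3%) held a peak, beside 2.65% of all protein-coding genes of that length. Outside the histone set, 7 of 1526 such short genes (0.459%) did. These counts are a description, and no peak in a histone gene fell within the span of another gene.

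The 95 histone peaks numbered 36, 29 and 30 in the 3 libraries and made up 1.16% ± 0.116 (SD, n = 3) of all peaks. Their summed height was 273, 233 and 201 units, which is 1.42%, 1.28% and 1.30% of each library and 1.33% ± 0.0775 on average (SD, n = 3). The libraries differed little in this share. Peaks of 10 units or more numbered 6, 8 and 5, or 20.3% ± 6.31 (SD, n = 3) of histone peaks against 8.11% ± 0.831 of the peaks in other protein-coding genes. Peaks of 20 units or more numbered 3, 2 and 1, or 6.19% ± 2.57 against 1.88% ± 0.25. The medians differed by little, at 5, 5 and 4.5 units in histone genes against 4 in other protein-coding genes. Peaks of 2 to 4 units were 44 of 95 in histone genes and 4597 of 7040 in other protein-coding genes. Per gene, the highest peak over the 3 libraries had a median of 5.5 units (quartiles 4 and 8) over the 40 members with a peak, beside 4 units (quartiles 3 and 6) over all 3086 protein-coding genes with one.

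H2B genes held most of this height. Their share of a library's summed height was 0.828%, 0.783% and 0.693%, with a mean of 0.768% ± 0.0683 (SD, n = 3), and they carried 57.6% ± 4.11 of all histone peak height. H2A genes held 0.213%, 0.192% and 0.240% (mean 0.215% ± 0.0241). H4 genes held 0.229%, 0.159% and 0.214% (mean 0.201% ± 0.0370), so the H4 and H2A ranges overlapped. H1 genes held 0.0781%, 0.0930% and 0.136% (mean 0.102% ± 0.0301), and H3 genes held 0.0729%, 0.0493% and 0.0194% (mean 0.0472% ± 0.0268). H2B exceeded every other class in every library. The H2B minus H2A difference was 0.614, 0.591 and 0.454 percentage points, a mean of 0.553 ± 0.0868 (SD, n = 3), higher for H2B in 3 of 3 libraries. An exact two-sided permutation test over sign flips gave p = 0.25, the smallest value that 3 libraries allow, so the difference could not pass a threshold of 0.05 in this design. The mean difference was 0.254 points when only peaks at least 10 nt wide were kept, since several of the tallest H2B peaks were narrower than that. Without H2bc9, the member with the largest summed height, it was 0.373 points. Divided by the genes in each class, it was 0.0354 points per gene.

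**Figure D1:**
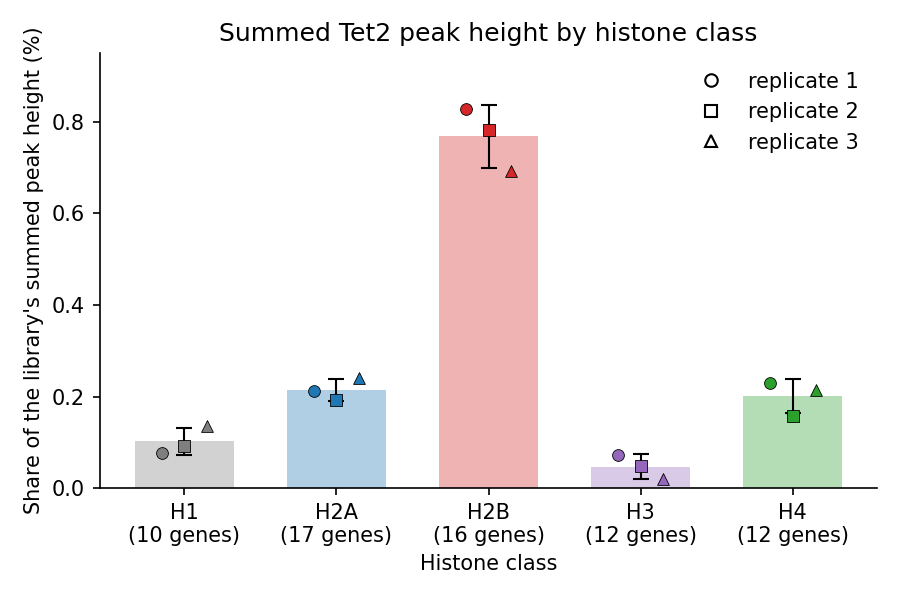
Share of each library's summed Tet2 peak height (%, y axis) in the genes of each histone class (x axis); bars are means over 3 libraries, error bars are SD and points are the libraries. H2B genes held 0.768% on average, above the 0.215% of H2A in every library, and H3 genes the least at 0.0472%.

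H2B proteins pair with H2A in the nucleosome. Of the 16 H2B genes, 12 held a peak in any library and 9 in all 3, with 11, 9 and 11 in the single libraries. They held 37 peaks with a median of 7 units, and 16 of the 19 histone peaks of 10 units or more were theirs, as were all 6 of 20 units or more. The tallest peak lay in H2bc9 (gene ID 319182, chr13:23542923-23543444, minus strand), at 44, 26 and 26 units (mean 32 ± 10.4, SD, n = 3). By this mean H2bc9 ranked 14 among the 3086 protein-coding genes with a peak. It had 1 peak per library, at chr13:23543042-23543046, chr13:23543043-23543044 and chr13:23543048-23543049. These were 5, 2 and 2 nt wide and centred 400, 400.5 and 395.5 nt from the annotated start, so the replicate 3 peak lay beside the others without overlapping them.

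H2bc8 (chr13:23571400-23571863, plus strand) had a tallest peak of 24, 16 and 17 units and ranked 38. These peaks were centred 356, 349 and 322.5 nt from the start and were 35, 3 and 6 nt wide. A second, lower peak stood near the start in replicates 1 and 2, at 82 and 77 nt with 9 and 3 units, and none was listed there in replicate 3. H2bc4 (chr13:23684199-23692480) had 6, 27 and 18 units. All 3 of its peaks lay within chr13:23684437-23684565, with widths of 128, 2 and 45 nt, so its lowest height came with its widest peak. Its start was not in the promoter table, and no distance was computed.

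H2bc3 (chr13:23746734-23747223, plus strand) had 27, 12 and 10 units, with peaks centred 371.5, 376 and 384 nt from the start and 46, 65 and 49 nt wide. Replicate 1 stood far above the other libraries, while the positions nearly coincided. H2bc14 (chr13:21722044-21722526, plus strand) had 12, 19 and 5 units, centred at 371.5, 363 and 248 nt, so the low replicate 3 peak also lay elsewhere in the gene. H2bc15 had 10, 12 and 4 units. Its peaks lay nearer the start, at 103, 105 and 114.5 nt, and replicate 2 had another of 12 units at 280 nt.

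The other H2B genes with peaks in all 3 libraries were lower. H2bc7 had 7, 5 and 4 units and H2bc22 had 3, 3 and 7 units. H2bc6 had 6, 5 and 4 units and held 2 peaks in each library, one near and one far from the second of its 2 annotated starts, at 91 and 312 nt, 69.5 and 358 nt, and 91 and 365.5 nt. That gene's annotated span is 37455 nt, but its peaks lay close to that second start. H2bc23 held 5 units in replicates 1 and 3 and no peak in replicate 2. H2bc12 held 4 units in replicate 3 and H2bc11 3 units in replicate 1. H2bc1, H2bc13, H2bc18 and H2bc21 held no peak.

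**Figure D2:**
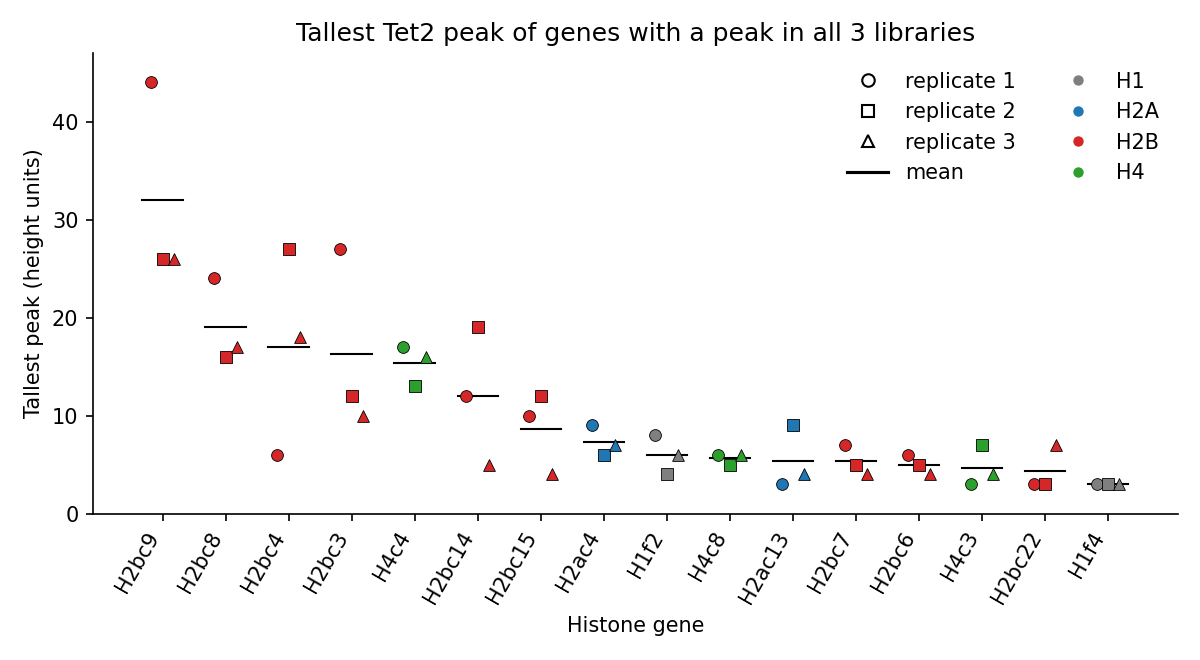
Height of the tallest Tet2 peak (height units, y axis) in each of the 16 histone genes with a peak in all 3 libraries (x axis, ordered by the mean); marker shapes are replicates, colours are classes and short lines are means. H2bc9 stands highest at 44, 26 and 26 units and 9 of the 16 genes are H2B genes, while H2bc4 spreads from 6 to 27 units.

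Of the 17 H2A genes, 10 held a peak and 2 held one in all 3 libraries, with 7, 5 and 7 in the single libraries. Their 22 peaks had a median of 5 units and none passed 9 units. H2ac4 had 9, 6 and 7 units, at 88.5, 140 and 146.5 nt from its start, with another peak of 3 units at 261.5 nt in replicate 1. H2ac13 had 3, 9 and 4 units at 392.5, 392.5 and 392 nt, so its position hardly moved while its height varied. A further 5 genes held a peak in 2 libraries each. H2ac15 had 7 units in replicates 2 and 3, H2ac8 had 4 and 6 units in the same libraries. H2ac10 had 5 and 3 units and H2ac19 had 3 and 4 units in replicates 1 and 3, and H2ac20 had 5 and 3 units in replicates 1 and 2. H2ac18 held 8 units and H2ac22 5 units in replicate 1, and H2ac24 held 3 units in replicate 3. H2ac1, H2ac6, H2ac7, H2ac11, H2ac12, H2ac21 and H2ac23 held none.

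Many H2A and H2B genes stand head to head, with divergent starts that share 1 intergenic stretch, so such pairs allow a comparison of neighbours. In all, 9 pairs had starts at most 500 nt apart, with 164 to 281 nt observed, and this pairing rule was chosen after seeing the data. By mean tallest height the H2B gene was higher in 7 pairs and the H2A gene in 1, and neither held a peak in H2ac1 and H2bc1. H2bc8 at 24, 16 and 17 units faced H2ac8 at 0, 4 and 6 units, with starts 180 nt apart, where 0 stands for no listed peak. H2bc7 at 7, 5 and 4 units faced H2ac7, which held no peak. H2bc15 at 10, 12 and 4 units faced H2ac15 at 0, 7 and 7 units, so H2A was the higher of these in replicate 3. H2bc22 and H2ac22 had 3, 3 and 7 against 5, 0 and 0 units, so H2A was the higher in replicate 1 and H2B in the other libraries. Among the 9 pairs H2bc13 was the exception, with no peak beside H2ac13 at 3, 9 and 4 units. Summed over the 9 pairs, H2B genes held 61, 51 and 41 units and H2A genes 8, 26 and 20 units, and H2B was the larger in each library. H2bc9, H2bc3 and H2bc14 were in none of these pairs, and H2bc4 and H2bc21 had no annotated start to pair by. The span of H2bc4 follows that of H2ac6, which held no peak. The span of H2bc21, which held no peak, follows that of H2ac20, which had 5 and 3 units in replicates 1 and 2.

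**Figure D3:**
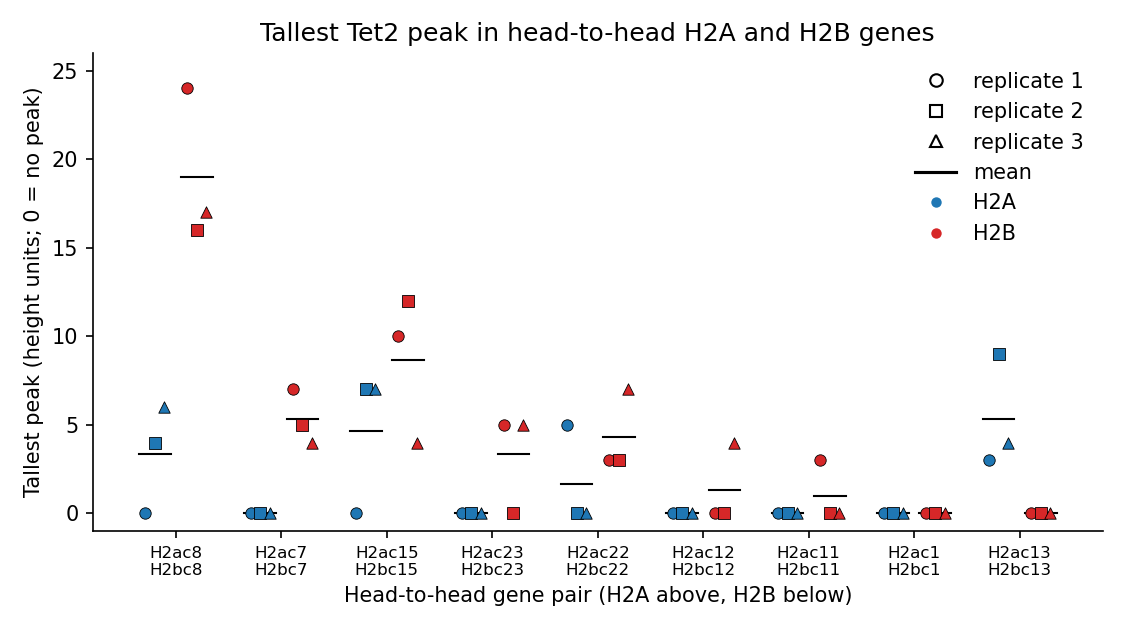
Tallest Tet2 peak (height units, y axis; 0 means no listed peak) in 9 head-to-head pairs of an H2A and an H2B gene (x axis); marker shapes are replicates, colours are the class and short lines are means. The H2B gene is the higher by its mean in 7 pairs, most of all for H2bc8 at 24, 16 and 17 units, and H2ac13 with 3, 9 and 4 units stands beside H2bc13 without a peak.

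H4, which with H3 forms the tetramer at the centre of the nucleosome, had peaks in 8 of 12 genes and in 3 genes in all 3 libraries. The single libraries had 8, 4 and 4 H4 genes with a peak. H4c4 (chr13:23581568-23581969, plus strand) had 17, 13 and 16 units (mean 15.3 ± 2.08, SD, n = 3) and ranked 55 among genes with a peak. Its peaks were 11, 1 and 23 nt wide and centred 247, 248 and 230 nt from the start, and these 3 were the only histone peaks of 10 units or more outside H2B. Its 3 values lay closer together than those of any of the 4 H2B genes ranked above it. H4c8 had 6, 5 and 6 units at 346, 346.5 and 389 nt, and H4c3 had 3, 7 and 4 units. H4c6 had 4 and 7 units in replicates 1 and 3, and H4c12 had 4 units in replicates 1 and 2. H4c17 held 4 units and H4c1 and H4c9 held 3 units, each in replicate 1 alone. H4c2, H4c11, H4c14 and H4c18 held none.

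H3, the core histone whose tail carries many of the best studied modifications, held the least. Peaks lay in 5 of 12 H3 genes, in 4, 3 and 1 of them in the single libraries, and no H3 gene had one in all 3. The 8 H3 peaks had a median of 3 units, the height near which the lists begin. H3c6 had the highest mean, with 5 and 3 units in replicates 1 and 2. H3c3 and H3c7 had 3 units in the same libraries, H3c11 held 3 units in replicate 1 and H3c10 held 3 units in replicate 3. The other 7 H3 genes, H3c1, H3c2, H3c4, H3c8, H3c13, H3c14 and H3c15, held no peak.

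H1 histones bind where DNA enters and leaves the nucleosome. Peaks lay in 5 of 10 H1 genes, in 3, 4 and 4 of them in the single libraries. H1f2 had 8, 4 and 6 units (chr13:23738807-23739531, plus strand), centred at 180 nt in replicate 1, at 427.5 nt in replicate 2 and at 113 nt in replicate 3, where another peak of 5 units stood at 432 nt. H1f4 had 3 units in each library. H1f3 had 4 and 6 units in replicates 1 and 2, and H1f5 had 4 and 3 units in replicates 2 and 3. These are somatic H1 forms of the chromosome 13 cluster. H1f0, a replication-independent H1 of chromosome 15 that is known from cells leaving the cycle, held 4 units in replicate 3 alone. No peak lay in H1f1, in H1f10, or in H1f6, H1f7 and H1f8, which encode germ cell forms.

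By location, the 53 histone genes of chromosome 13 held 36 of the 40 members with a peak and all 16 with a peak in every library. They held 89 peaks and 1.28% ± 0.0480 of the library's height (SD, n = 3), which is 96.3% of the histone height. The chromosome 13 genes fall into separate stretches. The stretch at chr13:21715711-22043658 had 22 genes, of which 16 held a peak and 4 held one in all 3 libraries, with 0.286%, 0.416% and 0.311% of the height. The stretch at chr13:23531044-23934913 had 31 genes, of which 20 held a peak and 12 held one in all 3 libraries, with 1.05%, 0.843% and 0.940% of the height. The second stretch was thus higher in each library, and it holds H2bc9, H2bc8, H2bc4, H2bc3 and H4c4. On chromosome 3 (chr3:96219885-96270192), 3 of 10 genes held a peak and none in all 3 libraries. All 3 were H2A genes, H2ac18, H2ac19 and H2ac20, and the height share there was 0.0833%, 0.0164% and 0.0259%. The chromosome 3 copies of H2B (2 genes), H3 (3 genes) and H4 (1 gene) held no peak, where chromosome 13 had 12 of 14, 5 of 9 and 8 of 11. For H2A, when any library counted, 3 of 4 genes on chromosome 3 and 7 of 13 on chromosome 13 held a peak. In the single libraries these were 3, 1 and 1 of 4 against 4, 4 and 6 of 13. The H2A share was thus higher on chromosome 3 in replicate 1 alone. The 2 H2A genes with a peak in all 3 libraries were on chromosome 13. Many canonical core histone genes are near copies of each other, while the linker histones differ more. No source used here says how the authors' mapping shared reads among near copies, so the value of a single copy is uncertain to that extent.

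Within the genes, 90 of the 95 peaks could be placed from an annotated start. Their midpoints lay 69.5 to 454 nt from it, with a median of 307 nt (quartiles 149 and 372). The median was 351 nt in H2B (34 peaks), 338 nt in H3 (6 peaks), 309 nt in H2A (22 peaks), 240 nt in H4 (16 peaks) and 211 nt in H1 (12 peaks), and the quartile ranges of the classes overlapped. Median gene spans, in the same order, were 491.5, 502, 504, 405.5 and 788 nt. Midpoints must lie within a span, so these distances are bounded differently by class. The 14 placed H2B peaks of 10 units or more, which come from 5 genes, had a median of 367 nt (quartiles 329 and 382). The 20 lower H2B peaks had a median of 323 nt with a wider spread (quartiles 109 and 356), and the 53 lower peaks of other classes a median of 267 nt (quartiles 155 and 373). The tall H2B peaks of H2bc9, H2bc8, H2bc3 and H2bc14 stood in the later part of spans of 464 to 522 nt, and those of H2bc15 at 103, 105 and 280 nt. Exons and coding ends were not in the tables used here, so the peaks are placed by distance only.

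**Figure D4:**
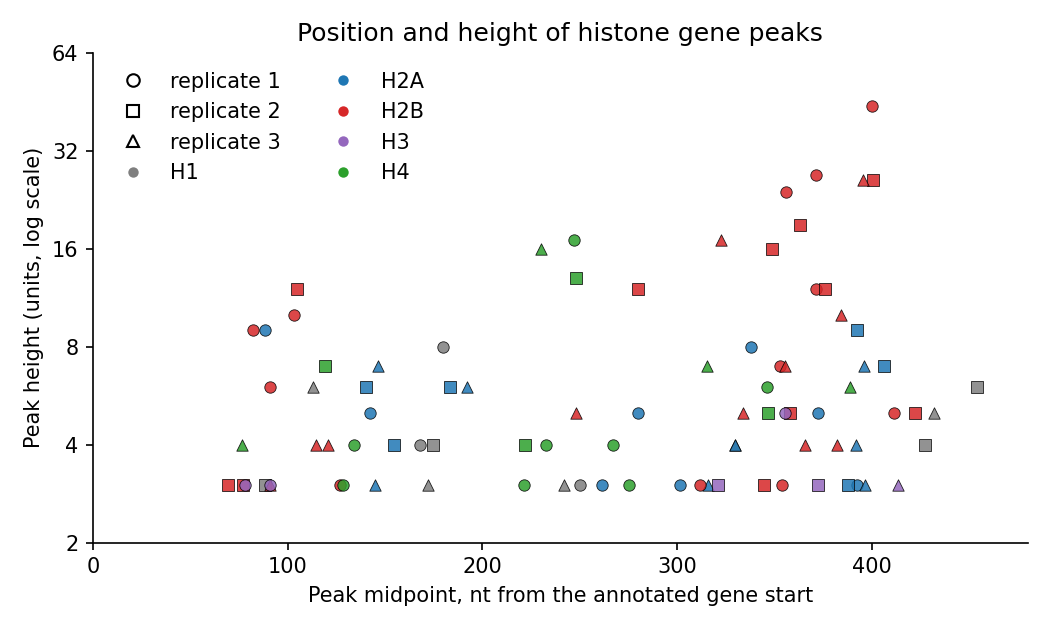
Height of each histone gene peak (units, log scale, y axis) against the distance of its midpoint from the annotated gene start (nt, x axis) for the 90 peaks with a start; marker shapes are replicates and colours are classes. H2B peaks of 10 units or more have a median position of 367 nt, and the 3 H4 peaks of that height lie at 230 to 248 nt.

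Some of the tallest histone peaks were narrow. Of all histone peaks 8 (8.42%) were at most 5 nt wide, against 3.47% of the peaks in other protein-coding genes, and 6 of those 8 had 10 units or more. At 10 units or more the median widths were 20 nt in histone genes and 24 nt in other protein-coding genes. The 6 histone peaks of 20 units or more had a median width of 3.5 nt, beside 10.5 nt for the 132 such peaks in other protein-coding genes. Of these 6, 3 were the H2bc9 peaks, and those of H2bc8 and H2bc3 were 35 and 46 nt wide. Over all heights the median widths were alike, at 56 and 55 nt.

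Peaks in histone genes were set against those of the other libraries. A histone peak overlapped a peak of another given library by at least 1 nt in 36.1%, 53.5% and 45.0% of pairings for replicates 1, 2 and 3, a mean of 44.9% ± 8.67 (SD, n = 3). Peaks in other protein-coding genes did so in 33.8% ± 3.52. At 2 to 4 units the shares were 38.4% ± 13.5 and 22.6% ± 2.92, and at 5 to 9 units 46.5% ± 12.7 and 48.9% ± 8.57. At 10 units or more they were 56.4% ± 14.4 over 19 histone peaks and 75.3% ± 1.16 over other protein-coding peaks. The histone mean was thus the higher at 2 to 4 units and the lower above that, by less than the SD at 5 to 9 units. When midpoints within 100 nt were counted in place of overlap, the shares at this height were 91.0% ± 9.39 and 92.9% ± 1.28, so the tall histone peaks had near neighbours in other libraries that they often did not touch, as in H2bc9. The histone peaks formed 61 separate loci, of which 9 (14.8%) appeared in 3 libraries, 16 (26.2%) in 2 and 36 (59.0%) in 1. Over all 5969 loci of the series the shares were 11.1%, 15.1% and 73.8%.

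**Figure D5:**
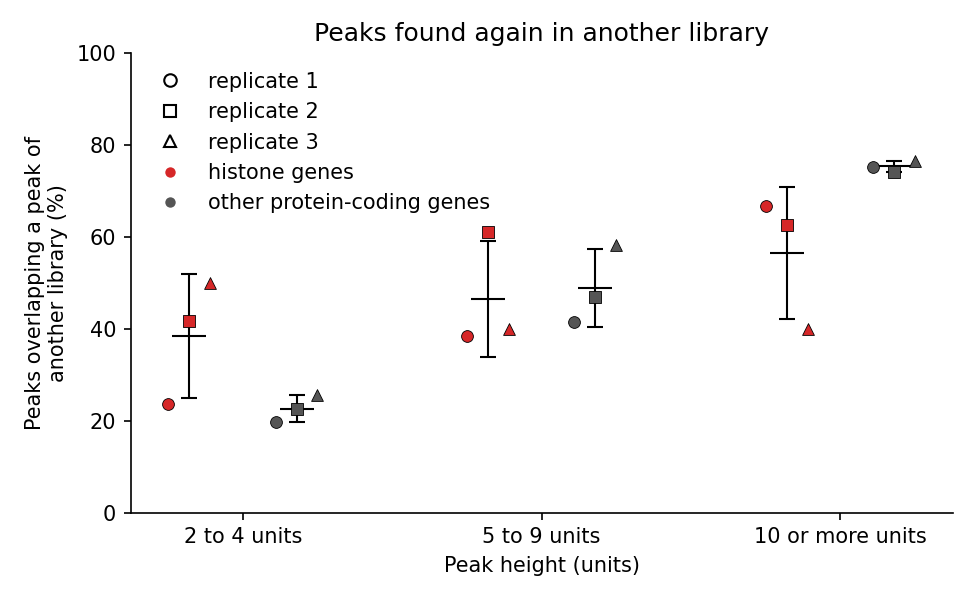
Share of peaks that overlap a peak of another library by at least 1 nt (%, y axis) by peak height (units, x axis), for histone genes and other protein-coding genes; points are the 3 libraries, lines are means and error bars are SD. At 2 to 4 units histone peaks lie higher (38.4% against 22.6%), and at 10 units or more they lie lower and spread more (56.4% against 75.3%).

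The promoter table held 300 nt windows, 250 before to 50 after the start, for 62 of the 67 members, and H2bc4, H2bc21, H3c1, H3c7 and H4c14 had no entry. The octamer ATTTGCAT was present on either strand in 353 of 21263 protein-coding windows (1.66%). It was present for 7 of 14 H2B genes and 6 of 17 H2A genes and in no window of H1, H3 or H4. In the 9 head-to-head pairs the starts lay 164 to 281 nt apart, so the windows of partners overlap. A match of any motif there can count for both genes, so the H2A and H2B counts are not independent. TATAAA was present in 54.0% of histone windows against 12.6% of all windows, and CCAAT in 82.5% against 38.2%. CCAAT was in every H2A, H2B and H3 window and 7 of 10 H1 windows, but in 3 of 11 H4 windows. That H4 share (27.3%) stood beside 38.2% of all windows and rests on 11 windows only. Among the H2B genes, each gene's tallest height was averaged over the 3 libraries. By this mean the 7 with an octamer had a median of 5.0 units (range 0 to 19.0, 5 with a peak). The 7 without had a median of 4.33 units (range 0 to 32, 6 with a peak). The ranges overlapped. Of the octamer genes, H2bc8, H2bc3, H2bc14, H2bc6 and H2bc12 held a peak and H2bc1 and H2bc18 held none. A match describes these windows only and does not show that a factor sits there.

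Genes around histone supply were read from 4 lists. Histone variants listed as having a polyadenylated mRNA held a peak in 5 of 9 matched genes and in 2 genes in all 3 libraries. Over all protein-coding genes the shares were 14.1% and 3.16%. The variant H2az1, which encodes H2A.Z, had 10, 11 and 5 units, and H2ax, whose product is phosphorylated at DNA breaks, had 6, 5 and 7 units. H2aj had 4 and 9 units in replicates 1 and 2, and H3f3b, which encodes the replacement histone H3.3, had 3 units in replicate 1. Factors that process histone mRNA held a peak in 5 of 20 genes and in none in all 3 libraries. Slbp, the stem-loop binding protein, held 3 units in replicate 3 alone. Srrt had 5 and 4 units in replicates 1 and 2, Sympk 5 units in replicate 2 and Cpsf2, part of the cleavage machinery, 3 units in replicate 1.

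Histone chaperones held a peak in 5 of 18 genes (27.8%) and in none in all 3 libraries. The shares over all protein-coding genes were 14.1% and 3.16%. The FACT subunit Supt16 had 3 and 4 units and Npm1 3 units in replicates 1 and 2, and Chaf1b, a subunit of the replication-coupled assembly factor CAF-1, and Anp32e had 5 units in replicate 1. S phase and DNA replication genes held a peak in 10 of 25 genes, 2 of them in all 3 libraries. These were the kinase Cdk2, at 9, 8 and 5 units, and the DNA ligase Lig1, at 5, 6 and 5 units. Mki67, a marker of dividing cells, had 9 and 3 units and Pcna, the sliding clamp of replication, 4 units in replicates 1 and 2. All of these lay below H2bc9, H2bc8 and H4c4 in each library, but histone genes in general did not stand above them. H2bc4 had 6, 27 and 18 units, so in replicate 1 it stood below Cdk2 and Mki67 at 9 units. By mean tallest height Cdk2, at 7.33 units, was level with H2ac4 and above H1f2 at 6 units.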

How the data were processed

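Tet2 CLIP-seq libraries of mast cells, 3 replicates of 1 group, were used as deposited. Per the submitters' processing notes, cutadapt 1.9, STAR 2.4.0i and mm10 were used. The peak caller sought valleys on both sides of a peak, per the labels' protocols, and no source used here gives its version or thresholds. The values are a signal: for every peak the authors deposited a normalized height, and the heights of a library sum to 1. Heights were whole multiples of 1 step within 0.05 of a step and were expressed in steps. Starts were read as 0-based and are printed 1-based.

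A peak was assigned to each RefSeq GRCm38.p6 gene span (49997 spans) that held its midpoint. Members by older symbol were an alternative. The members, gene lists and tests were chosen with earlier results of these data known. Genes named by rule were members with a peak in all 3 libraries, the leading member of each class, any linker histone with a peak, and up to 4 genes per context list. Other members are named because every member is accounted for. The H2B minus H2A difference was tested by exact sign flips over libraries, and every other value is a description. SD measures only the spread between these 3 libraries, which the labels tie to no named animals. The permutation p takes its smallest value whenever the 3 differences share a sign, so it does not measure that spread.

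The alternatives were the assignment rule, widened spans, a minimum height, older symbols, the start base, the overlap rule, per gene scaling, leaving out a member and leaving out each library. A minimum peak width was added after seeing the data. Python 3.11.15, pandas 2.3.3, numpy 2.4.6, scipy 1.17.1 and matplotlib 3.10.9 were used, and the scripts were tested on simulated data.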

Additional observations from a re-analysis of the deposited data

How the results depend on the processing

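Counts and shares have no direction to change, so only the H2B minus H2A difference could have reversed under an alternative. Of 12 alternatives for the 40 histone genes with a peak, 10 stayed within 1.5 times. The count was 25 with only peaks of at least 5 units, for which the share of all protein-coding genes was not computed. It was 16 (23.9%) with a peak required in all 3 libraries, beside 3.16% of all protein-coding genes. The 1.33% share of height was 1.05% with only peaks of at least 5 units and 0.968% with only peaks at least 10 nt wide, a limit chosen after seeing the data. The H2B minus H2A difference kept its direction in all 8 alternatives. It was 0.545 points at 5 units or more and 0.522 to 0.603 points leaving out each library in turn, where the exact two-sided permutation p was 0.5. The 44.9% of peaks overlapping another library was 31.3% for peaks of at least 5 units, since fewer partners then remain, 23.5% when 50% of both peaks had to overlap, and 59.5% with midpoints within 100 nt. Leaving out each library gave 33.6% (without replicate 2) to 54.3% (without replicate 1). Depth is unknown and most peaks stand near the lowest listed height, so a gene without a peak may hold signal below it.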

Other observations

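Outside the member spans, 6 peaks lay within 1500 nt of a histone gene. Past the annotated end of H1f2 stood a peak of 3 units in replicate 2 and one of 6 units in replicate 3, at 102.5 and 130.5 nt. The pseudogene H2ac14 held a peak of 3 units in replicate 2. On chromosome 3, peaks of 3 units stood 118.0 nt from H3c15 and 99.5 nt from H3c14 in replicate 1, and both of these H3 genes held none within their spans. Another of 5 units stood 1006 nt from H2ac18 in replicate 3. Of 4 genes that only an older histone symbol brings in, H4f16 held 3 units in replicate 1, and H2bu2, H2aw and H4bc24 held no peak.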
